A study of Mus musculus with 12 samples.

Results

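Chromatin accessibility was examined at 43 interferon response genes in invariant natural killer T (iNKT) cells of the mouse thymus. Each gene was represented by the regions of the deposited accessibility table that overlapped its gene body (GENCODE vM21, mm10) or the 10 kb on either side. This rule gave 223 of the 63309 regions in the table, each 500 bp long, on 15 chromosomes. A window can also hold a neighbouring gene, and 181 of the 223 regions were nearer to the start of an interferon response gene than to that of any other protein-coding gene. Accessibility was measured by ATAC-seq, in which a transposase inserts sequencing adapters into open DNA, and is given as log2 normalised insertions per kb. Differences between groups are differences of these log2 values, so that 3-fold is 1.58.

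The study asked how loss of HIVEP3, a zinc finger protein that binds DNA, alters iNKT cell development. The 6 groups were iNKT1, iNKT2 and iNKT17 cells from C57BL/6 mice and the same 3 subsets from Hivep3-/- mice, which had been backcrossed to C57BL/6. All mice were untreated and 8 to 9 weeks old, and thymi were pooled. Each group had 2 libraries, 12 in all. Cells were sorted as CD122+ ICOS- (iNKT1), CD122- ICOS+ Izumo1r+ CD138- (iNKT2) and CD122- ICOS+ Izumo1r- CD138+ (iNKT17), mixed for a common transposition and sorted again on ICOS and CD138. The second sort alone therefore separated the nuclei of the 3 subsets. The titles number the 2 libraries of a group Mouse1 and Mouse2, whereas the protocol describes pooled thymi. Whether each library is 1 animal or a pool is therefore uncertain, and p-values measure the spread between these libraries. A higher value can mean that more cells are open at a region or that each cell is more open there, which bulk libraries cannot tell apart.

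Interferons are cytokines that switch on an antiviral gene programme in most cells. Type I interferons bind IFNAR1 and IFNAR2 and, through JAK kinases, activate a complex with STAT2 and IRF9 that reads the interferon-stimulated response element (ISRE). Interferon gamma binds IFNGR1 and IFNGR2, and genes that respond to it can carry the gamma-activated site (GAS). iNKT1 cells are known as producers of interferon gamma, iNKT2 cells of interleukin-4 and iNKT17 cells of interleukin-17.

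The promoters of the 43 genes carried ISRE letters more often than promoters in the table as a whole. This describes a list chosen as interferon response genes, and no library enters it. GAAANNGAAA, searched on both strands, was present in 32 of the 77 regions within 1000 bp of an annotated start of one of these genes (41.6%, 95% Wilson interval 31.2 to 52.7%). Among all 21193 promoter regions of protein-coding genes the share was 5.52%. The GAS letters TTCNNNGAA, also searched on both strands, were present in 22 of the 77 regions (28.6%) and in 10.6% of all promoter regions. The intervals cover counting error only. At least 1 promoter region with the ISRE letters was found for 29 of the 43 genes. These were 14 of 19 antiviral effectors and sensors, 9 of 10 inducible GTPases, 3 of 3 feedback and chemokine genes and 3 of 7 transcription factors, but 0 of 4 receptor genes (0 of 8 promoter regions, Wilson upper bound 32.4%).

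The stretches below were read from the mm10 genome and are written 5′ to 3′ on the strand of the gene, with every match to the named letters in capitals and 25 bases on either side of a match. TTTCNNTTTC is GAAANNGAAA read from the other strand. The first set shows the ISRE match upstream of the start of 4 antiviral effectors and sensors and 3 feedback and chemokine genes, so that the shared core can be compared.
Isg15 (chr4:156200850-156200921): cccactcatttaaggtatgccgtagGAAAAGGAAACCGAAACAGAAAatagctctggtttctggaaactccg
Ifit1 (chr19:34640760-34640819): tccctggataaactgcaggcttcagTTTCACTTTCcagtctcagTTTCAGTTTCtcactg
Oas3 (chr5:120777700-120777759): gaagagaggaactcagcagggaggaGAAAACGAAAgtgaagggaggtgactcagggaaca
Rsad2 (chr12:26456538-26456597): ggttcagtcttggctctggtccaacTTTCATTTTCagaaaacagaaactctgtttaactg
Usp18 (chr6:121245798-121245857): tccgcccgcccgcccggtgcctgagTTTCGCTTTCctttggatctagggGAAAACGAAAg
Socs1 (chr16:10785579-10785644): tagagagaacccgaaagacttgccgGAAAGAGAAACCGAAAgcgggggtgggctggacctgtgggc
Cxcl10 (chr5:92349068-92349127): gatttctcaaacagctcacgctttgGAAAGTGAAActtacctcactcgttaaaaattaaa

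Matches to the GAS letters are shown for the promoters of Irf1 and Irf8, a pair of interferon-induced transcription factors, and for Igtp and Irgm2, neighbouring GTPase genes. The last 2 stretches differed at 2 of 59 bases. Reads from such near-identical copies may be split or lost in alignment, so values at Igtp and Irgm2 are less certain than those elsewhere.
Irf1 (chr11:53769899-53769957): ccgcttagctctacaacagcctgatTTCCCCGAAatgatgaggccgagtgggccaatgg
Irf8 (chr8:120736162-120736220): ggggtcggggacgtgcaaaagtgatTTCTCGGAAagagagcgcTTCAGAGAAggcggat
Igtp (chr11:58199486-58199544): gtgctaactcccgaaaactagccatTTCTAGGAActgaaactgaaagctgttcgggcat
Irgm2 (chr11:58214877-58214935): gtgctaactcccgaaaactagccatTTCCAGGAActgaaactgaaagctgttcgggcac

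The last set holds the ISRE matches in 4 regions away from promoters that differed between C57BL/6 subsets by the criteria given below: upstream of Usp18 and of Oas3, in an intron of Irf4 and downstream of Ifngr1.
Usp18 upstream (chr6:121238254-121238313): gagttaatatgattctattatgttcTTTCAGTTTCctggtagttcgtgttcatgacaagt
Oas3 upstream (chr5:120779695-120779754): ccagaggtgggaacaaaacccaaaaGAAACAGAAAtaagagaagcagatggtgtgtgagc
Irf4 intron (chr13:30760305-30760364): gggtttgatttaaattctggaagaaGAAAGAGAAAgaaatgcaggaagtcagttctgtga
Ifngr1 downstream (chr10:19612209-19612268): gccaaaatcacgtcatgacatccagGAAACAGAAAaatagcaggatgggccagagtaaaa

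Away from promoters the ISRE letters were less particular to these genes. They were present in 18 of the 146 other regions of the 43 windows (12.3%) and in 8.48% of all regions away from coding promoters. Of the 60 regions of these genes that differed between C57BL/6 subsets, promoters included, 12 held the ISRE letters (20%). The share was 22.4% in the 223 regions and 7.49% in all regions. The GAS letters were in 8 of the 60 (13.3%), beside 19.7% of the 223 regions and 13.4% of all regions. A match is a description of the sequence and no measure of binding.

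The libraries were checked against markers of each subset. Marker regions of iNKT1 cells (Tbx21, Il2rb, Nkg7, Xcl1) were higher in C57BL/6 iNKT1 than in iNKT2 cells at 17 of 34, and those of iNKT17 cells (Il23r, Sdc1, Ccr6) were lower in iNKT1 than in iNKT17 cells at 22 of 29 and higher at 2. Marker regions of iNKT2 cells (Izumo1r, Il4, Gata3, Il17rb) were higher in iNKT2 than in iNKT17 cells at 13 of 44 and lower at 1, but against iNKT1 cells they were split, with 4 higher and 4 lower of 45. Among markers of myeloid and dendritic cells Csf1r had no region, and the summed level of the other 4 genes (19 regions) was 254 to 261 normalised insertions per kb in C57BL/6 iNKT1, 221 to 230 in iNKT2 and 134 to 136 in iNKT17 libraries. By region, 4 were called higher and 5 lower in iNKT1 than in iNKT2 of 17 tested, and 5 higher and 0 lower in iNKT1 than in iNKT17 of 13. The locus medians of Itgax and Spi1 were ordered from iNKT1 through iNKT2 to iNKT17, whereas those of Lyz2 and Flt3 were highest in iNKT2. The part of these markers in the differences below was not tested. Ms4a1 of B cells and Rag1 and Cd8a of double-positive thymocytes had no region either. Read depth is not given by the values, and the lower part of each library, up to its median, took only 73 to 491 distinct values, so that low levels are coarse.

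Most promoters of the interferon response genes were open in all 3 subsets. The own promoter region of a gene was taken as the one with the highest mean within 1000 bp of an annotated start, which gave 42 distinct regions because Igtp and Irgm2 shared 1. Following the study, a group mean of 5 normalised insertions per kb (2.32 on the log2 scale) was taken as accessible. At or above it in all 12 libraries were 38 of the 42 regions. The table lists only accessible regions and the highest was taken, so a high share follows in part from the choice. No share over all promoters was computed. Means over the 12 libraries had a median of 5.52 and ran from 1.72 at Oas2, a sensor of double-stranded RNA, to 7.45 at Socs1, which inhibits JAK kinases.

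A region was called different between groups at a limma adjusted p under 0.1 (Benjamini-Hochberg over all regions tested) and a difference of at least 3-fold, the thresholds of the study. Between C57BL/6 subsets the own promoter region was called for 6 genes, namely Irf4, Ifit3, Oas2, Oasl1, Mx1 and Iigp1. For the other 37 genes it was not called in any comparison of C57BL/6 subsets. Values there lay between 2.14 and 7.78, and the largest difference was 1.25.

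**Figure D1:**
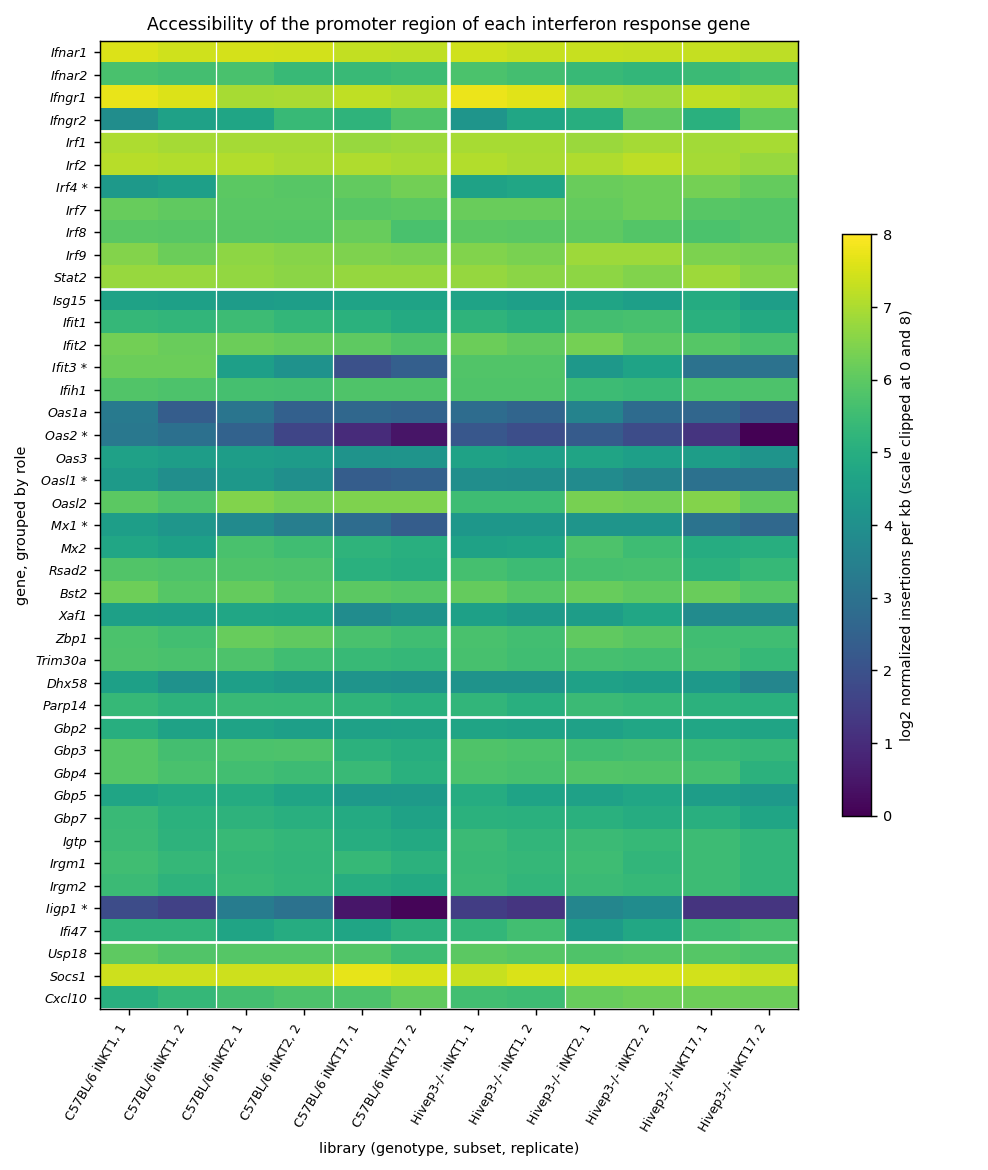
Accessibility of the own promoter region of each of the 43 genes (rows, ordered by role) in the 12 libraries (columns, by genotype and subset), in log2 normalised insertions per kb on a scale that runs from 0 to 8, with values outside it drawn at its ends. Asterisks mark the 6 genes whose promoter region was called between C57BL/6 subsets, and most rows keep 1 shade across all libraries.

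Accessibility around these genes was highest in iNKT1 cells more often than in the table as a whole. In C57BL/6 cells iNKT1 had the highest mean of the 3 subsets at 132 of the 223 regions (59.2%, 36.0% of all regions), iNKT2 at 59 (26.5%, 32.3% of all) and iNKT17 at 32 (14.3%, 31.7% of all). The lowest mean was that of iNKT17 cells at 118 regions (52.9%, 36.2% of all). Overlapping windows and neighbouring regions are not independent, and these shares are given without a test.

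Between C57BL/6 iNKT1 and iNKT2 cells 23 of 219 tested regions of the interferon response genes were higher in iNKT1 and 8 were lower. These were 10.5% and 3.7%, and over all regions tested 7.33% were higher and 8.71% lower. Compared with iNKT17 cells, 33 of 217 regions were higher in iNKT1 (15.2%) and 9 lower (4.1%), beside 9.72% and 10.8% of all regions. Between iNKT2 and iNKT17 cells 16 of 203 regions were higher in iNKT2 (7.9%) and 7 lower (3.4%), beside 7.72% and 8.49%. Hence the share of higher regions exceeded that of all regions in both iNKT1 comparisons and lay close to it for iNKT2 against iNKT17. The share of lower regions was below that of all regions in each. Of the 23 regions higher in iNKT1 than in iNKT2, 9 were neighbouring regions in the window of Ifngr1 alone. By role these higher shares were 25% for receptors, 8.89% for transcription factors and 7.14% for antiviral effectors and sensors. They were 7.81% for inducible GTPases and 5.56% for feedback and chemokine genes, so outside the receptors they lay near 7.33%.

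The median difference over the tested regions was 0.15 for iNKT1 against iNKT2 (0.01 over all regions), 0.37 for iNKT1 against iNKT17 (0.01) and 0.18 for iNKT2 against iNKT17 (0.03). In all, 60 regions at 27 genes were called in at least 1 of the 3 comparisons and 16 genes had none. The shares called lay near those of all regions. They were 13.1% within 1000 bp of an annotated start (11.8% of all) and 38.2% farther away (40.8% of all). Counts by gene given below are to be read beside these shares. The counts of the 3 comparisons depended on low values. After adding 5 normalised insertions per kb before taking logs they fell to 8, 11 and 2 called regions. After adding 1 the count for iNKT2 against iNKT17 was 15.

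**Figure D2:**
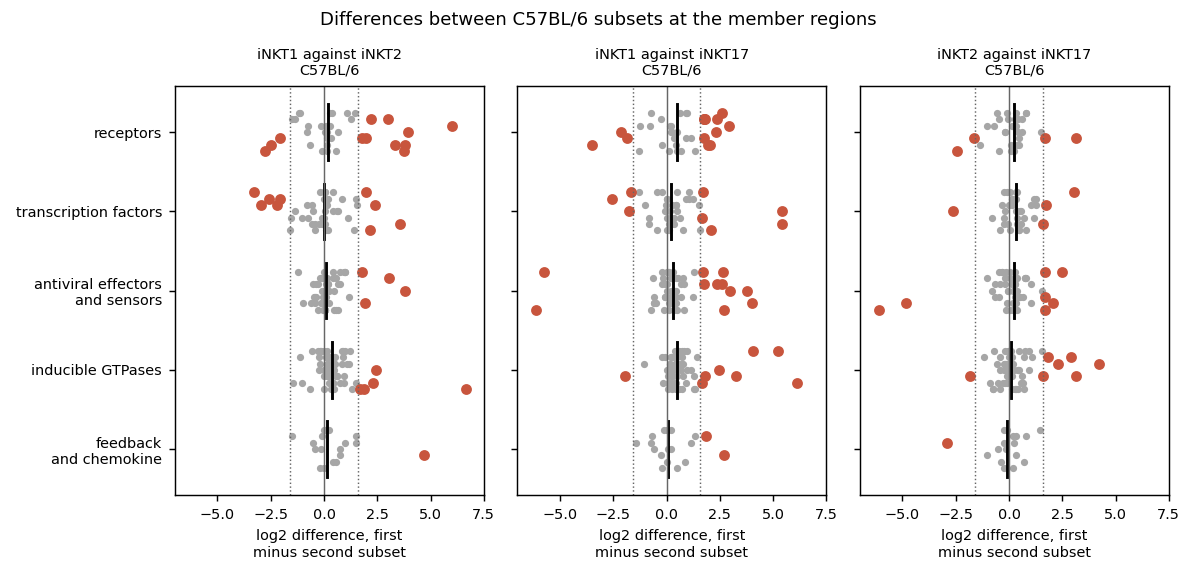
Differences of log2 accessibility between C57BL/6 subsets at the regions of the interferon response genes, one panel per comparison and one strip per role. Grey points are tested regions, red points called regions, black bars medians and dotted lines the 3-fold thresholds. Red points beyond the right line outnumber those beyond the left line in each comparison (23 and 8, 33 and 9, 16 and 7).

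Calls lay mostly outside promoters, as in the table as a whole. Of the tested regions within 1000 bp of any annotated start, 13 of 99 were called in at least 1 comparison of C57BL/6 subsets (13.1%, 11.8% of all such regions). Among those farther away 47 of 123 were called (38.2%, 40.8% of all).

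Regions called as higher in 1 C57BL/6 subset than in each of the other 2 were mostly those of iNKT1. Several of these iNKT1 regions were neighbours in the window of Ifngr1, which held more of them than any other window. Such neighbours are not independent, and the share without that window was not computed. The iNKT1 share given next therefore does not show an excess at the other genes. There were 18 such regions for iNKT1 cells of 214 tested in both comparisons (8.41%, 5.26% of all regions), 1 of 200 for iNKT2 (0.5%, 3.87% of all) and 3 of 198 for iNKT17 (1.52%, 6.86% of all). Of the 18 iNKT1 regions 4 held the ISRE letters (22.2%, Wilson interval 9.0 to 45.2%). The share was 22.4% in the 223 regions of the interferon response genes and 8.08% in all regions of the table called for iNKT1 in this way. The ISRE share thus did not set the 18 regions apart from the gene list as a whole. The GAS letters were in 0 of the 18 (Wilson upper bound 17.6%), beside 19.7% of the 223 regions and 15.8% of all regions called for iNKT1 in this way. The single iNKT2 region lay upstream of Irf4. The 3 iNKT17 regions lay inside other genes, namely Olfr56 in the window of Ifi47 and Zfp385c in that of Dhx58.

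Among the receptors, the called regions of the 2 chains of the interferon gamma receptor differed in opposite directions between iNKT1 and the other subsets. Of the 36 tested regions of the 4 receptor genes, 9 were higher in iNKT1 than in iNKT2 cells and 3 were lower. Against iNKT17 cells 10 were higher and 3 lower of 35, and between iNKT2 and iNKT17 2 were higher and 2 lower of 32. The higher shares were 25%, 28.6% and 6.25%, beside 7.33%, 9.72% and 7.72% of all regions. The lower shares were 8.33%, 8.57% and 6.25%, beside 8.71%, 10.8% and 8.49%. At Ifngr1, which encodes the ligand-binding chain, 9 of the 14 regions were called between C57BL/6 subsets, and at Ifngr2, the signalling chain that recruits JAK2, 4 of 9. Ifnar1 had no called region among 5.

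In the intron of Ifngr1 at chr10:19594495-19594994, values were 6.34 and 6.13 in C57BL/6 iNKT1, 2.99 and 2.81 in iNKT2 and 4.04 and 4.52 in iNKT17 libraries. The 3 groups did not overlap, and iNKT2 libraries were the lowest. The difference between iNKT1 and iNKT2 was 3.34 (SE 0.17, adjusted p = 2.49e-08) and that between iNKT1 and iNKT17 was 1.96 (SE 0.17, adjusted p = 6.07e-07). This region was described after its values were seen, for its high level. The own promoter region of Ifngr1 differed by 0.67 and 0.49 in the same comparisons. A second promoter region, chr10:19592585-19593084, was at 4.48 and 3.90 in iNKT1, 2.45 and 1.97 in iNKT2 and 4.08 and 3.59 in iNKT17 libraries and was called as higher in iNKT1 than in iNKT2 (1.98, SE 0.26, adjusted p = 3.48e-05) and lower in iNKT2 than in iNKT17 (-1.63).

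Downstream of Ifngr1, the region at chr10:19611522-19612021 was among the 3 with the largest rise in iNKT1 over iNKT2. Its values were 3.32 and 2.50 in C57BL/6 iNKT1, -3.79 and -2.39 in iNKT2 and -0.10 and 0.10 in iNKT17 libraries. The difference from iNKT2 was 6.00 (SE 0.66, adjusted p = 7.9e-06), and 2.92 after adding 1 normalised insertion per kb, since the iNKT2 values are near the lowest in their libraries. The adjoining region that holds the ISRE match printed above was also called, with 2.93 and 2.59 in iNKT1 against -1.72 and -0.67 in iNKT2 libraries. The outermost called region of this window, at chr10:19615080-19615579, was nearer to the start of Il22ra2 than to that of Ifngr1.

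At Ifngr2 an intron region was instead lowest in iNKT1 cells. This region, chr16:91551196-91551695, had values of 0.36 and 1.39 in C57BL/6 iNKT1, 3.65 and 3.60 in iNKT2 and 4.49 and 4.20 in iNKT17 libraries. Both iNKT1 libraries lay below all others. It was lower in iNKT1 than in iNKT2 by a difference of -2.75 (SE 0.31, adjusted p = 1e-05) and lower than in iNKT17 by -3.47 (SE 0.31, adjusted p = 7.39e-07). A region 843 bp from the start (chr16:91547990-91548489) was at 1.82 and 1.55 in iNKT1 and between 3.62 and 3.86 in the 4 other C57BL/6 libraries. The own promoter region of Ifngr2 was not called, and there the second library lay above the first in 6 of 6 groups.

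In the window of Ifnar2, which encodes a chain of the type I interferon receptor, 3 of 9 regions were called. That share lies between those of all regions near annotated starts (11.8%) and farther away (40.8%). One of them, chr16:91413013-91413512 in an intron of Il10rb, was among the 3 largest rises in iNKT2 over iNKT17. It stood at 3.36 and 3.80 in C57BL/6 iNKT1, 4.74 and 5.13 in iNKT2 and 1.51 and 2.05 in iNKT17 libraries, with a difference between iNKT2 and iNKT17 of 3.16 (SE 0.22, adjusted p = 1.63e-07). Its neighbour inside Il10rb and a region upstream of Ifnar2 were called as higher in iNKT1 than in iNKT17, by 2.58 and 1.75. The upstream call was lost without the first C57BL/6 iNKT1 (1.55) or the second C57BL/6 iNKT17 library (1.5).

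**Figure D3:**
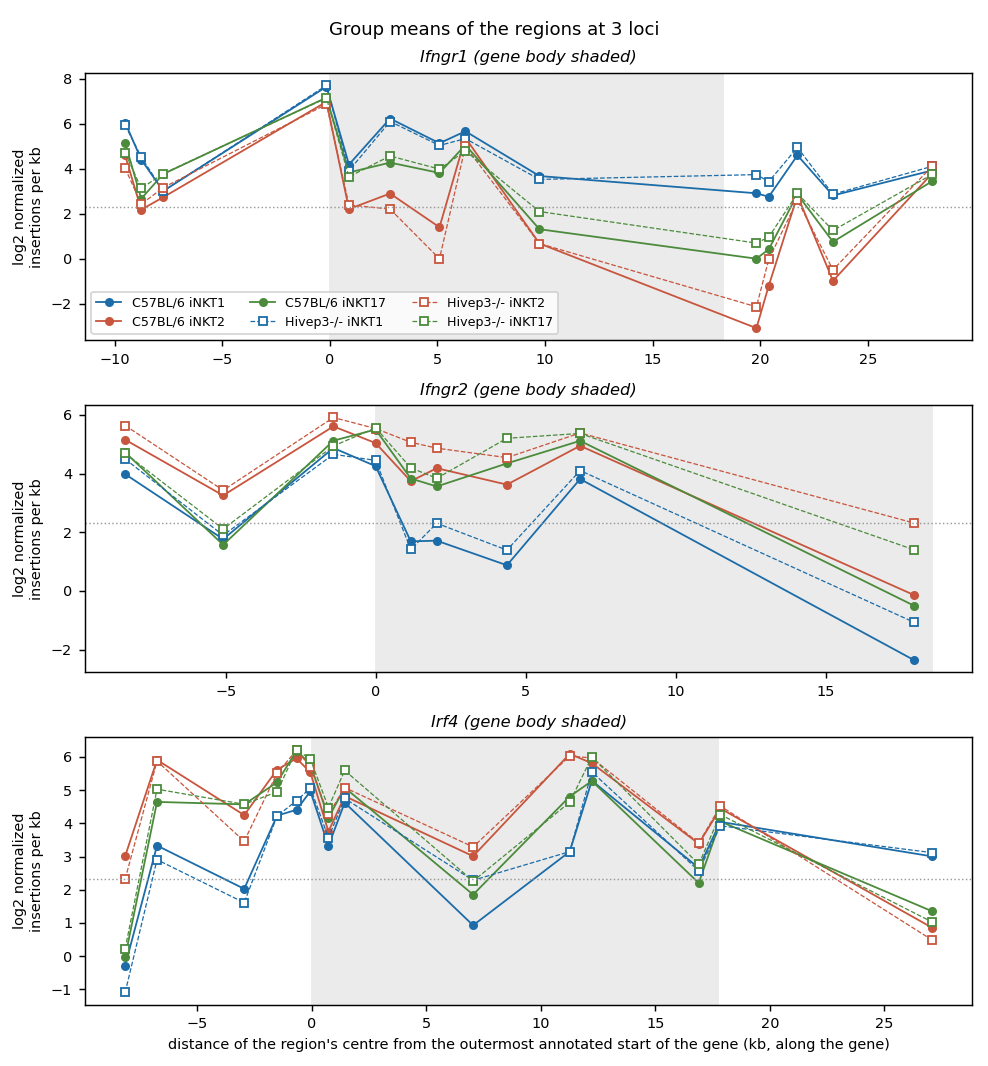
Group mean accessibility (log2 normalised insertions per kb) of each region against its distance from the annotated start, for Ifngr1, Ifngr2 and Irf4 in the 6 groups. The iNKT1 groups lie above the others at many regions of Ifngr1 and below them at regions inside Ifngr2 and around the Irf4 start.

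The transcription factor genes were split. Of 45 tested regions at Irf1, Irf2, Irf4, Irf7, Irf8, Irf9 and Stat2, 4 were higher in iNKT1 than in iNKT2 and 5 lower. Against iNKT17 cells 5 were higher and 3 lower of 43, and between iNKT2 and iNKT17 3 were higher and 1 lower of 39. The higher shares were 8.89%, 11.6% and 7.69%, beside 7.33%, 9.72% and 7.72% of all regions. The lower shares were 11.1%, 6.98% and 2.56%, beside 8.71%, 10.8% and 8.49%. Irf4, a factor induced by antigen receptor signals and required in many activated lymphocytes, held 7 of the called regions among its 14. The only region of Stat2 was not called.

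The called regions of Irf4 did not share 1 order, and 4 of the 7 were highest in iNKT2 cells. In the intron that carries the ISRE match printed above (chr13:30760234-30760733), C57BL/6 iNKT1 libraries stood at 3.00 and 3.29, iNKT2 libraries at 6.09 and 6.08 and iNKT17 libraries at 4.74 and 4.87. The 3 groups did not overlap. iNKT1 cells differed from iNKT2 cells by -2.94 (SE 0.15, adjusted p = 2.11e-08). Upstream, chr13:30742212-30742711 followed the same order, with 3.06 and 3.60 in iNKT1, 5.89 and 5.92 in iNKT2 and 4.62 and 4.66 in iNKT17 libraries.

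Farther upstream of Irf4, chr13:30740821-30741320 was the only region in the 43 windows called as higher in iNKT2 than in each other C57BL/6 subset. It was accessible in iNKT2 alone, at 2.90 and 3.13, beside -0.42 and -0.14 in iNKT1 and 0.57 and -0.61 in iNKT17 libraries. The differences were -3.29 for iNKT1 against iNKT2 (SE 0.65, adjusted p = 0.000849) and 3.03 for iNKT2 against iNKT17 (adjusted p = 0.00157).

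The region at chr13:30746019-30746518 upstream of Irf4 was at 2.19 and 1.86 in iNKT1, 4.22 and 4.27 in iNKT2 and 4.53 and 4.61 in iNKT17 libraries, lower in iNKT1 than in iNKT2 by -2.22 and than in iNKT17 by -2.54. Its own promoter region had the same order. Values were 4.31 and 4.51 in C57BL/6 iNKT1, 5.99 and 5.91 in iNKT2 and 6.09 and 6.28 in iNKT17 libraries. Against iNKT17 cells the iNKT1 difference was -1.78 (SE 0.12, adjusted p = 4.22e-08). That between iNKT1 and iNKT2 was -1.54 (SE 0.12, adjusted p = 3.63e-07), which did not reach 3-fold. A region beyond the 3′ end of the gene, chr13:30776058-30776557, went the other way and was higher in iNKT1 than in iNKT2 by 2.15 and than in iNKT17 by 1.65. The latter call was lost without the second C57BL/6 iNKT17 library (1.49) and with 1 normalised insertion per kb added (1.34).

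Irf8 and Irf2 each had a region that was accessible in iNKT1 cells and below the accessible level in both C57BL/6 iNKT17 libraries. Irf8 drives myeloid and B cell programmes, and the region at chr8:120760710-120761209 lies downstream of it, inside the readthrough gene Gm20388. It was at 3.73 and 3.85 in C57BL/6 iNKT1, -0.17 and 0.61 in iNKT2 and -3.12 and -0.17 in iNKT17 libraries. The difference from iNKT17 was 5.43 (SE 0.79, adjusted p = 5.74e-05), and 3.35 after adding 1 normalised insertion per kb. The promoter of Irf8 itself lay between 5.70 and 6.15 in all 12 libraries.

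At Irf2, a repressor and competitor of Irf1, the intron region at chr8:46782209-46782708 read 3.96 and 3.88 in C57BL/6 iNKT1, 2.44 and 1.44 in iNKT2 and -1.38 and -1.65 in iNKT17 libraries. The 3 groups did not overlap. Between iNKT1 and iNKT17 the difference was 5.43 (SE 0.58, adjusted p = 3.83e-06), and 3.58 with 1 normalised insertion per kb added. The called regions in the windows of Irf7 and Irf9 lay in Cdhr5 and at the promoter of Rec8. Irf1, which induces many of the genes described here, was called only beyond its gene body, with a difference of 1.62 between iNKT2 and iNKT17. This call was lost without the second C57BL/6 iNKT2 (1.56) or the first C57BL/6 iNKT17 library (1.20) and with 1 normalised insertion per kb added (1.47).

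Among the 19 antiviral effectors and sensors, every call against iNKT2 cells was higher in iNKT1. There were 4 such regions of 56 tested (7.14%, 7.33% of all regions) and 0 lower (8.71% of all). The share higher than in iNKT2 was thus near that of all regions. Compared with iNKT17 cells 9 of 58 were higher in iNKT1 (15.5%, 9.72% of all) and 2 lower (3.45%, 10.8% of all). Between iNKT2 and iNKT17 5 of 55 were higher (9.09%, 7.72% of all) and 2 lower (3.64%, 8.49% of all). The 2 lower regions in both comparisons were those inside Zfp385c.

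The promoter of Ifit3, whose product binds viral RNA together with the other IFIT proteins, differed between all 3 subsets. At chr19:34582691-34583190 it stood at 6.21 and 6.20 in C57BL/6 iNKT1, 4.51 and 4.08 in iNKT2 and 2.00 and 2.42 in iNKT17 libraries. The groups did not overlap, and it was called in each comparison. Between iNKT1 and iNKT17 the difference was 4.0 (SE 0.19, adjusted p = 3.24e-09), that between iNKT1 and iNKT2 was 1.91 (adjusted p = 3.46e-06) and that between iNKT2 and iNKT17 was 2.08 (adjusted p = 1.53e-06). By contrast the only region of Ifit1 in its window, at its promoter, was not called and lay between 4.87 and 5.66.

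The oligoadenylate synthetase genes, whose products sense double-stranded RNA, had 4 called regions, each with its lowest C57BL/6 values in iNKT17 libraries. Upstream of Oas3, in an intron of Gm43069, the region at chr5:120779256-120779755 holds the ISRE match printed above. Its values were 5.86 and 5.77 in C57BL/6 iNKT1, 4.68 and 4.64 in iNKT2 and 3.22 and 3.02 in iNKT17 libraries. iNKT1 cells exceeded iNKT17 cells by 2.69 (SE 0.15, adjusted p = 8.7e-09). The Oas3 promoter itself stayed between 4.11 and 4.68 in all 12 libraries.

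The promoter of Oas2 stood at 3.19 and 2.96 in C57BL/6 iNKT1, 2.51 and 1.66 in iNKT2 and 0.97 and 0.44 in iNKT17 libraries. Its difference between iNKT1 and iNKT17 was 2.37 (SE 0.50, adjusted p = 0.00113). At the Oasl1 promoter iNKT1 (4.35 and 3.96) and iNKT2 (4.26 and 3.97) overlapped, and both lay above iNKT17 (2.35 and 2.49). The differences from iNKT17 were 1.73 for iNKT1 and 1.70 for iNKT2 (SE 0.20 each, adjusted p = 5.95e-06 and 1.08e-05). These Oasl1 calls lie close to the 3-fold threshold: without the first C57BL/6 library of iNKT1 or of iNKT2 the respective difference was 1.54 or 1.55.

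Mx1, a dynamin-like GTPase active against influenza viruses, showed a steady decline at its promoter from iNKT1 (4.50 and 4.22) through iNKT2 (3.82 and 3.41) to iNKT17 (2.82 and 2.36). The difference of 1.77 between iNKT1 and iNKT17 (SE 0.22, adjusted p = 1.19e-05) fell to 1.54 without the second C57BL/6 iNKT17 library. A region 5028 bp from the Mx1 start, at the promoter of a noncoding gene, differed more. There iNKT1 libraries were at 4.14 and 3.79, iNKT2 at 0.41 and -0.10 and iNKT17 at 0.39 and 1.54, and the difference between iNKT1 and iNKT2 was 3.81 (SE 0.39, adjusted p = 4.01e-06).

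The 2 regions with the largest falls in iNKT1 against iNKT17 lay in the window of Dhx58, a cytoplasmic RNA sensor, but inside Zfp385c. At chr11:100688657-100689156 the C57BL/6 values were -3.12 and -3.79 in iNKT1, both the lowest of their libraries, -1.94 and -2.39 in iNKT2 and 2.46 and 2.89 in iNKT17. The difference between iNKT2 and iNKT17 was -4.84 (SE 0.77, adjusted p = 0.000168), and no fold is given for iNKT1. At chr11:100689228-100689727 values were -1.72 and -3.79 in iNKT1, -1.94 and -4.31 in iNKT2 and 2.77 and 3.17 in iNKT17 libraries, and the second values of iNKT1 and of iNKT2 are the lowest of their libraries. The region was called as lower in iNKT2 than in iNKT17 (-2.94 with 1 normalised insertion per kb added), and no fold is given without that addition. The promoter of Dhx58 was not called.

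No region was called between C57BL/6 subsets at 10 of these genes, namely Isg15, Ifit1, Ifih1, Oas1a, Oasl2, Mx2, Bst2, Xaf1, Zbp1 and Parp14. Isg15 encodes the ubiquitin-like modifier that USP18 removes, and its promoter stayed between 4.43 and 4.93. Bst2, the tetherin that holds budding virus at the membrane, stayed between 5.89 and 6.22.

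The interferon-inducible GTPases, which attack the vacuoles of intracellular pathogens, had 5 regions higher and 0 lower in iNKT1 than in iNKT2 of 64 tested. Against iNKT17 cells 7 were higher and 1 lower of 63, and between iNKT2 and iNKT17 6 were higher and 1 lower of 60. In these 3 comparisons the higher shares were 7.81%, 11.1% and 10%, beside 7.33%, 9.72% and 7.72% of all regions. The lower shares were 0%, 1.59% and 1.67%, beside 8.71%, 10.8% and 8.49%. In an exon of Irgm2 at chr11:58222278-58222777 the C57BL/6 values were 4.38 and 4.61 in iNKT1, -1.22 and -3.12 in iNKT2 and -0.59 and -0.88 in iNKT17. Only the iNKT1 libraries were accessible. The difference between iNKT1 and iNKT2 was 6.66 (SE 0.61, adjusted p = 1.79e-06), the largest of these 43 windows, and 4.22 with 1 normalised insertion per kb added.

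At an exon of Gbp7, chr3:142545365-142545864, the C57BL/6 libraries fell into 3 levels that did not overlap, with 4.24 and 4.32 in iNKT1, 2.70 and 2.07 in iNKT2 and -1.38 and -2.29 in iNKT17. The difference between iNKT1 and iNKT17 was 6.12 (SE 0.40, adjusted p = 4.48e-08), or 3.99 with 1 normalised insertion per kb added. Between iNKT2 and iNKT17 it was 4.22 (SE 0.40, adjusted p = 2.07e-06), or 2.28 with 1 normalised insertion per kb added, and without the first C57BL/6 iNKT2 library the region was not accessible in either group and was not tested. The next region towards Gbp3, chr3:142549997-142550496, kept the order with 4.87 and 5.10, 3.97 and 4.19, and 1.29 and 0.55, and differed by 3.16 between iNKT2 and iNKT17 (SE 0.25, adjusted p = 4.25e-07).

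Iigp1, an immunity-related GTPase, departed from this order. Its promoter was highest in iNKT2 cells, at 3.35 and 3.02, beside 1.87 and 1.55 in C57BL/6 iNKT1 and 0.49 and 0.10 in iNKT17 libraries. The difference between iNKT2 and iNKT17 was 2.89 (SE 0.30, adjusted p = 3.82e-06). That between iNKT1 and iNKT2 was -1.48 (adjusted p = 0.000968) and did not reach 3-fold. Gbp2, Gbp5 and Irgm1 had no called region among their 4, 6 and 11.

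Feedback regulators and the chemokine Cxcl10, a ligand of CXCR3, had few called regions. Of 18 tested regions 1 was higher in iNKT1 than in iNKT2 (5.56%, 7.33% of all) and 0 lower (8.71% of all). Against iNKT17 cells 2 of 18 were higher in iNKT1 (11.1%, 9.72% of all) and 0 lower (10.8% of all). Between iNKT2 and iNKT17 0 of 17 were higher (7.72% of all) and 1 lower (5.88%, 8.49% of all). The region upstream of Usp18, an inhibitor of the type I receptor, was at 3.26 and 3.06 in C57BL/6 iNKT1, -1.0 and -2.10 in iNKT2 and 0.39 and 0.55 in iNKT17 libraries (chr6:121238111-121238610). It differed by 4.71 between iNKT1 and iNKT2 (SE 0.48, adjusted p = 4.1e-06), or 2.87 with 1 normalised insertion per kb added. The Usp18 promoter stayed between 5.5 and 6.01.

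Downstream of Socs1, chr16:10775531-10776030 was most open in iNKT17 cells, with 3.71 and 3.86 there, 1.06 and 0.68 in iNKT2 and 2.47 and 2.25 in C57BL/6 iNKT1 libraries. The difference between iNKT2 and iNKT17 was -2.91 (SE 0.28, adjusted p = 2.22e-06). Cxcl10 had no called region among 2.

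**Figure D4:**
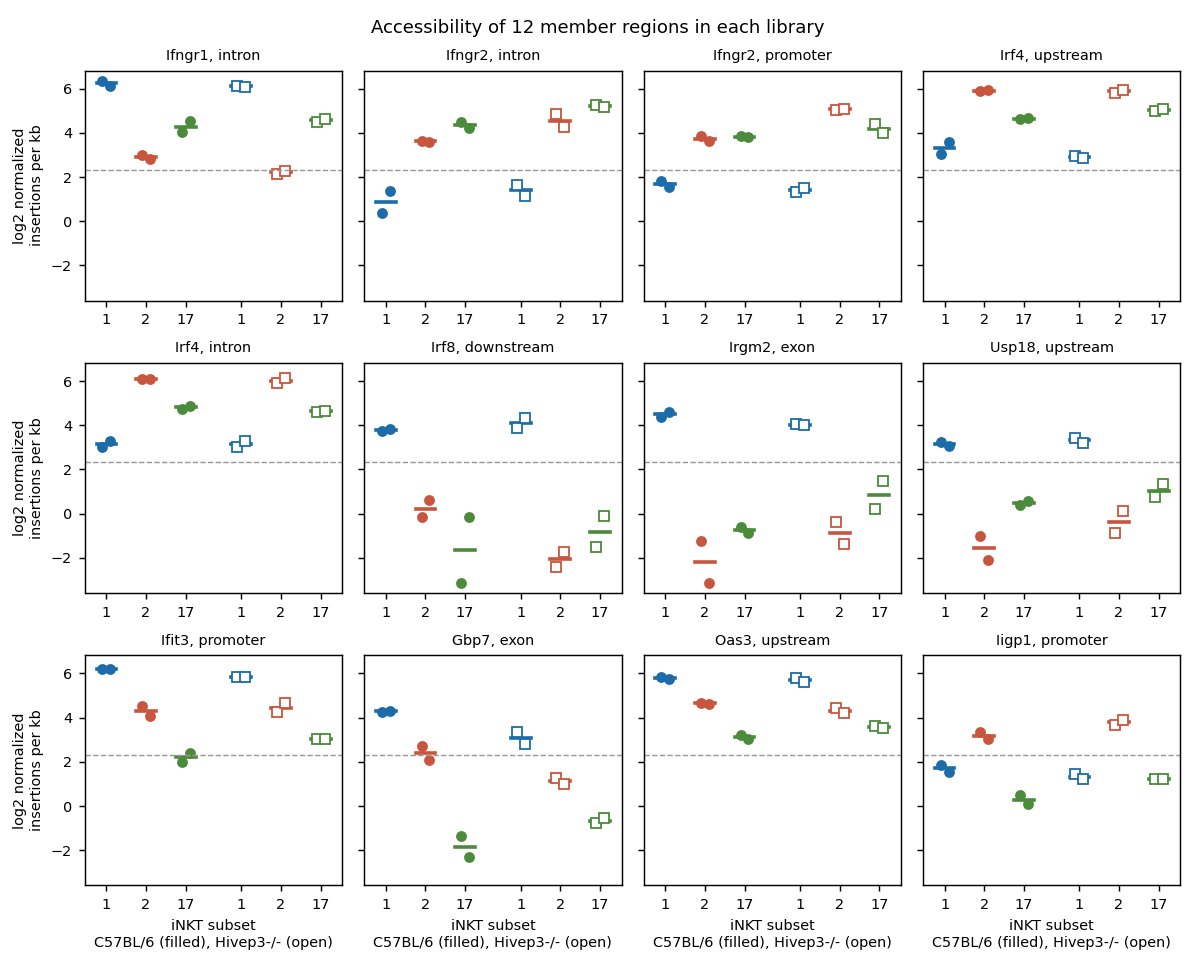
Values of 12 regions in each library (log2 normalised insertions per kb), by subset and genotype. Points are libraries, bars are means of 2 and the dashed line is the accessible level of 2.32. The libraries of Hivep3-/- cells follow the order of the C57BL/6 subsets in most panels. Genotype means above the accessible level lie apart at the Ifngr2 promoter region in iNKT2 (difference 1.33) and the Gbp7 exon in iNKT1 (-1.20), and below that level at the Irf8 downstream region in iNKT2 (-2.30), which was not tested there.

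Regions called between C57BL/6 subsets kept their direction in Hivep3-/- cells, but the median shift of iNKT1 over iNKT2 was not seen there. There 26 of 218 tested regions were higher in iNKT1 than in iNKT2 and 10 lower (8.77% and 8.54% of all regions). Against iNKT17 cells 23 of 212 were higher in iNKT1 and 7 lower (9.48% and 9.83% of all), and between iNKT2 and iNKT17 10 of 204 were higher and 6 lower (7.33% and 8.25% of all). Median differences were 0.01, 0.19 and 0.19, beside -0.01, 0.02 and 0.04 over all regions. For iNKT1 against iNKT2 the median was 0.15 in C57BL/6 cells. In that comparison 146 of 219 regions had a positive difference in C57BL/6 and 111 of 218 in Hivep3-/- cells. The change in these medians was not tested. With 5 normalised insertions per kb added, the counts of called regions fell to 13, 10 and 2.

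Of the 31 regions called between C57BL/6 iNKT1 and iNKT2, 26 were also called in Hivep3-/- cells with the same sign (83.9% of these and 72.2% of the 36 called in Hivep3-/- cells). Over all regions 69.7% of the C57BL/6 calls were shared. For iNKT1 against iNKT17 28 of 42 were shared (66.7%, 76.2% over all regions), which was 93.3% of the 30 Hivep3-/- calls. For iNKT2 against iNKT17 13 of 23 were shared (56.5%, 73.0% over all), which was 81.3% of the 16 Hivep3-/- calls. No region was called in opposite directions, and all C57BL/6 calls had the same sign in Hivep3-/- cells.

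The Ifngr1 intron described above read 6.13 and 6.08 in Hivep3-/- iNKT1, 2.14 and 2.28 in iNKT2 and 4.51 and 4.64 in iNKT17 libraries, in the same order as in C57BL/6. At the Irf4 intron the Hivep3-/- values were 3.03 and 3.26, 5.92 and 6.13, and 4.61 and 4.66. Likewise the Oas3 upstream region stood at 5.78 and 5.62, 4.46 and 4.19, and 3.62 and 3.51. At each of these 3 regions the Hivep3-/- mean of each subset lay within 1 log2 unit of the C57BL/6 mean.

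Direct comparison of the genotypes found no region of the interferon response genes that passed both thresholds within a subset. In iNKT1 cells limma called 0 of 209 tested regions, with 19 at an unadjusted p under 0.05 (9.09%, 17.8% of all regions), and over all regions 0.89% were called higher and 0.264% lower in Hivep3-/-. In iNKT2 cells it called 0 of 197, with 53 at an unadjusted p under 0.05 (26.9%, 25.3% of all regions), beside 0.474% and 1.2% of all regions called. In iNKT17 cells it called 0 of 188, with 41 at an unadjusted p under 0.05 (21.8%, 15.8% of all regions), beside 0.133% and 0.138% of all called. A share of 0 in a list of this size is near these backgrounds.

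One region passed in the mean of the 3 subsets, where 0.202% of all regions were called higher and 0.327% lower. It is an exon region of Ifngr2 (chr16:91564782-91565281), with -0.94 and -3.79 in C57BL/6 iNKT1, 0.68 and -0.97 in iNKT2 and -0.41 and -0.61 in iNKT17 libraries. In Hivep3-/- cells the values were -0.78 and -1.38, 1.52 and 3.10, and 0.87 and 1.93. Thus it was below the accessible level in 11 of 12 libraries, and the iNKT1 groups overlapped. The second C57BL/6 iNKT1 value is the lowest of its library, so the size of the difference in the mean is uncertain. The difference in the mean of the subsets was 1.89 (SE 0.53, adjusted p = 0.0307). It was no longer called without the second C57BL/6 iNKT1 library (1.41), without the second Hivep3-/- iNKT2 library (1.62) or with 1 normalised insertion per kb added (0.98). In iNKT2 cells alone the difference was 2.46 (SE 0.91, adjusted p = 0.107), which missed the threshold, and it passed when replicate number was added to the fit as a block. The 3 subsets of a transposition are not independent, which limits this p.

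Smaller differences between genotypes were counted at an adjusted p under 0.1 with no threshold on fold. In iNKT2 cells 19 of 197 regions were higher in Hivep3-/- and 9 lower, beside 8.26% and 8.16% of all regions. In iNKT1 cells 3 of 209 were higher and 3 lower (5.49% and 3.93% of all), and in iNKT17 cells 9 of 188 were higher and 0 lower (2.66% and 1.99% of all). In the mean of the subsets 30 of 223 were higher and 13 lower (10.5% and 9.21% of all). Among T cell markers, regions of Cd247 were called higher in Hivep3-/- cells (4 in iNKT1, 12 in iNKT2 and 11 in iNKT17), and Cd3e and Thy1 had 0 calls between genotypes. The summed level of the 3 genes (47 regions, 33 of them at Cd247) was 888 to 1047 normalised insertions per kb in C57BL/6 and 1182 to 1559 in Hivep3-/- libraries, and the part of this in the differences was not tested. The Hivep3 locus itself had no region called between genotypes in any subset, and where the deleted part lies in it was not determined.

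By role, and with no test of the difference between roles, the antiviral effectors and sensors had 3 of 52 tested regions higher in Hivep3-/- iNKT2 cells and 0 lower, 0 of 56 in iNKT1 cells in either direction and 1 of 50 higher in iNKT17 cells. Over all regions 8.26% were higher and 8.16% lower in iNKT2, 5.49% and 3.93% in iNKT1 and 2.66% and 1.99% in iNKT17 cells. At an unadjusted p under 0.05 the antiviral counts were 5, 3 and 8 regions in iNKT2, iNKT1 and iNKT17 cells. These were 9.62%, 5.36% and 16%, beside 25.3%, 17.8% and 15.8% of all regions. For the 3 feedback and chemokine genes 6 of 16 regions were higher in Hivep3-/- iNKT2 cells (37.5%) and 0 lower. Regions of so few genes are neighbours and not independent. The receptors had 5 of 32 higher and 3 lower there, the transcription factors 3 of 38 higher and 4 lower, and the GTPases 2 of 59 higher and 2 lower.

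The examples that follow were chosen after their values were seen. In an exon of Ifit3 (chr19:34588194-34588693) C57BL/6 iNKT2 libraries were at 4.24 and 3.86 and Hivep3-/- iNKT2 libraries at 5.43 and 5.42, a difference of 1.37 (SE 0.18, adjusted p = 0.000603). In an exon of Socs1 (chr16:10781871-10782370) the iNKT2 values were 6.10 and 6.16 in C57BL/6 and 7.02 and 7.01 in Hivep3-/-, a difference of 0.88 (SE 0.07, adjusted p = 2.78e-05). An exon of Irf1 (chr11:53774693-53775192) rose from 3.35 and 3.19 to 4.31 and 4.48, by 1.12 (SE 0.19, adjusted p = 0.00257). None of these groups overlapped.

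In the other direction, the called region of the Irf9 window, at the Rec8 promoter, fell from 5.00 and 5.23 in C57BL/6 iNKT2 to 3.84 and 4.30 in Hivep3-/- iNKT2 libraries (difference -1.05, SE 0.22, adjusted p = 0.00995). In iNKT1 cells a region upstream of Igtp (chr11:58189636-58190135) was lower in Hivep3-/-, with 2.32 and 2.08 against 3.57 and 3.37 (difference -1.27, SE 0.32, adjusted p = 0.0318). In iNKT17 cells the Ifit3 promoter was higher in Hivep3-/- libraries, at 3.01 and 3.02 against 2.00 and 2.42 (difference 0.81, SE 0.19, adjusted p = 0.0452), while the difference in iNKT1 cells was -0.38 (adjusted p = 0.341).

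**Figure D5:**
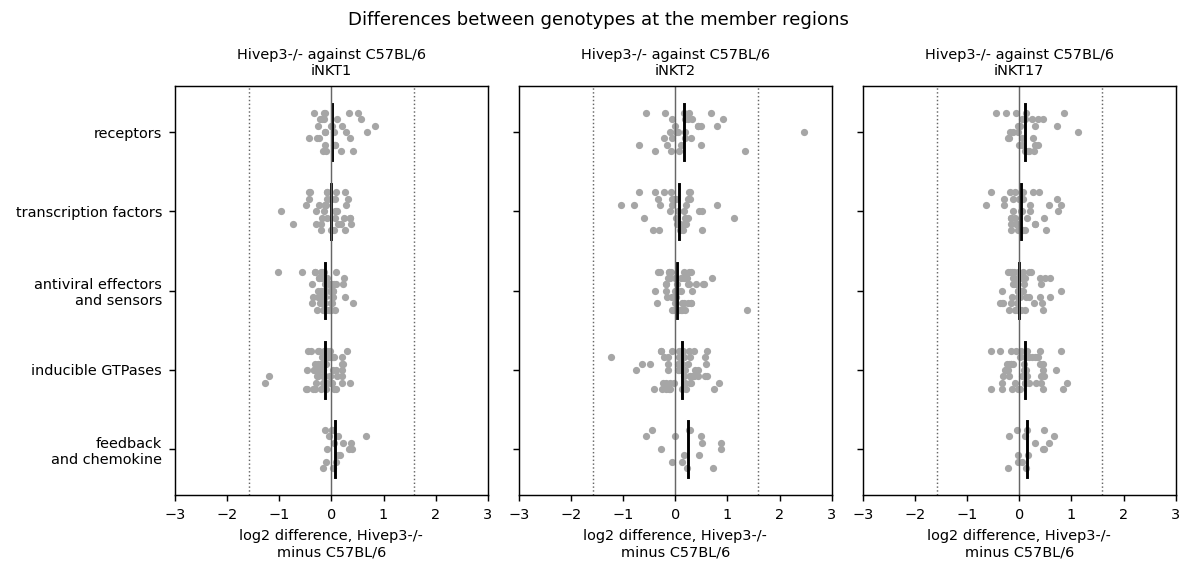
Differences of log2 accessibility, Hivep3-/- minus C57BL/6, at the regions of the interferon response genes in each subset, one strip per role. Grey points are tested regions, black bars medians and dotted lines the 3-fold thresholds. No region was called, and the single point beyond a dotted line is the Ifngr2 exon in iNKT2 cells, at 2.46.

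Whether the genotype difference itself differed between subsets was tested as an interaction, with the same thresholds applied to the difference of the 2 differences. One of 220 regions was called for iNKT1 against iNKT2 (3.06% of all regions in either direction), 1 of 217 for iNKT1 against iNKT17 (1.42%) and 1 of 206 for iNKT2 against iNKT17 (1.02%). The numbers of regions at an unadjusted p under 0.05 were 33 (15.0%, 20.8% of all regions), 21 (9.68%, 14.2% of all) and 31 (15.0%, 14.9% of all).

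For iNKT1 against iNKT2 the region was that 843 bp from the Ifngr2 start. It was at 1.33 and 1.49 in Hivep3-/- iNKT1 against 1.82 and 1.55 in C57BL/6, and at 5.04 and 5.09 in Hivep3-/- iNKT2 against 3.86 and 3.62 in C57BL/6. In iNKT17 cells it was at 4.38 and 4.01 against 3.86 and 3.80. The interaction was -1.60 (SE 0.29, adjusted p = 0.00624), which is just past 3-fold, and it was -1.47 after adding 1 normalised insertion per kb. It was also no longer called without the first C57BL/6 iNKT1 (-1.47), the second C57BL/6 iNKT2 (-1.49), the first Hivep3-/- iNKT1 (-1.52) or the second Hivep3-/- iNKT2 library (-1.58).

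Both other interactions were called at the Gbp7 exon. Hivep3-/- libraries stood at 3.34 and 2.83 in iNKT1 against 4.24 and 4.32 in C57BL/6, at 1.29 and 1.02 in iNKT2 against 2.70 and 2.07, and at -0.78 and -0.55 in iNKT17 against -1.38 and -2.29. The Hivep3-/- values thus lay below those of C57BL/6 in iNKT1 and iNKT2 and above them in iNKT17 cells, and none of the 3 genotype differences was called within a subset. The interaction was -2.37 for iNKT1 against iNKT17 (SE 0.57, adjusted p = 0.0541) and -2.40 for iNKT2 against iNKT17 (SE 0.57, adjusted p = 0.0573). With 1 normalised insertion per kb added these were -1.45 and -1.29, below 3-fold. The call against iNKT1 was lost without either C57BL/6 iNKT1 library (-2.41 and -2.32), either Hivep3-/- iNKT1 library (-2.62 and -2.11) or the second C57BL/6 iNKT17 library (-1.91). That against iNKT2 was lost without either C57BL/6 iNKT2 library (-2.09 and -2.72), the second Hivep3-/- iNKT2 (-2.27), the first Hivep3-/- iNKT1 (-2.40) or the second library of either iNKT17 group (-1.95 and -2.28).

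A further 41 genes of the interferon pathways, such as Jak1, Jak2, Isg20, Slfn5 and the Ifitm genes, had 205 regions not shared with the 43. Between C57BL/6 iNKT1 and iNKT2 cells 14 of 202 were higher and 9 lower, for iNKT1 against iNKT17 16 of 194 were higher and 6 lower, and for iNKT2 against iNKT17 11 of 187 were higher and 6 lower. The shares of higher regions were 6.93%, 8.25% and 5.88%, each below that of all regions (7.33%, 9.72% and 7.72%). The shares of lower regions, 4.46%, 3.09% and 3.21%, were further below theirs (8.71%, 10.8% and 8.49%). Median differences were 0.11, 0.25 and 0.17, beside 0.01, 0.01 and 0.03 over all regions. Between genotypes 1 of 191 was called higher in Hivep3-/- iNKT1 (0.52%, 0.89% of all regions) and 0 lower (0.264% of all). In iNKT2 cells 1 of 191 was higher (0.52%, 0.474% of all) and 5 lower (2.62%, 1.2% of all). In iNKT17 cells and in the mean of the subsets limma called 0 of 183 and 0 of 205, with 38 and 66 at an unadjusted p under 0.05.

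Among them, an exon of Isg20, an RNA exonuclease, stood at 6.44 and 6.53 in C57BL/6 iNKT1 and 6.37 and 6.32 in Hivep3-/- iNKT1 libraries, and at 4.71 and 4.37 in C57BL/6 iNKT2 against 2.20 and 2.45 in Hivep3-/- iNKT2 libraries (chr7:78908996-78909495). The iNKT2 difference was -2.22 (SE 0.53, adjusted p = 0.0181). A promoter region of Ifitm2, which restricts viral entry, read 3.16 and 3.19 in the iNKT2 libraries of C57BL/6 and 1.44 and 1.40 in those of Hivep3-/- (difference -1.76, SE 0.28, adjusted p = 0.0019). In iNKT1 cells it was instead at 2.70 and 2.55 in C57BL/6 and 4.13 and 4.10 in Hivep3-/- libraries, and the interaction between these subsets was 3.25 (SE 0.40, adjusted p = 0.00109). An exon of Jak2 held the iNKT1 call, with -0.94 and 0.20 in C57BL/6 and 3.17 and 2.01 in Hivep3-/- libraries (difference 2.96, SE 0.53, adjusted p = 0.0052). In iNKT2 cells this Jak2 region was called lower in Hivep3-/- (-1.93), and the interaction was 4.89 (SE 0.75, adjusted p = 0.00308).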

How the data were processed

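Omni-ATAC libraries of 3 sorted thymic iNKT subsets were compared in 2 genotypes, with 2 libraries per group. Per the paper's methods, the authors trimmed reads to 50 bp (Trimmomatic 0.39 in the submitters' processing notes), ran the ENCODE ATAC-seq pipeline on mm10, merged peaks into 500 bp regions with chromVAR and normalised insertions with voom. The deposited table holds log2 normalised insertions per kb for each region and library. Counts and library totals are not used here, so depth is unknown and the number of reads behind a value cannot be given.

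Regions were assigned with GENCODE vM21. A limma (version 3.58.1, R 4.3.3) group-means model with an empirical Bayes trend was fitted to all 12 libraries and all 63309 regions. A comparison tested regions with a linear group mean of at least 5 in one of its groups, p-values were adjusted (Benjamini-Hochberg) over all of them, and a call needed adjusted p under 0.1 and at least 3-fold. The 6 groups share one estimate of the spread (6 residual and 7.17 prior degrees of freedom). An exact permutation test of 2 libraries against 2 cannot go below 0.333 and was not used. The fit was tested on simulated data. Sequence letters were read from the mm10 genome with pysam 0.24.0, with coordinates counted from 1.

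Values are given for the 3 called regions with the largest rise and the 3 with the largest fall in each comparison of C57BL/6 subsets, for every called region of the genotype comparisons and interactions, and for the own promoter regions. Any other region described was picked with its values in view. The members and lists were chosen with earlier results of these data known, and some genes of the marker and pathway lists are not reported here. Same-numbered libraries deviated together (r from 0.113 to 0.172 over regions, in 9 of 9 pairs of groups), and the labels say that the subsets were mixed for transposition, so a fit with the replicate number as a block was run as an alternative. Other alternatives were added constants of 1 and 5, no filter, a renewed quantile normalization, no trend, a stricter adjusted p of 0.05, windows with no flank or with 50 kb, promoters within 250 bp and each library left out.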

Additional observations from a re-analysis of the deposited data

Results flagged for a closer look

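The following interactions within the interferon response genes were singled out because the genotype difference differed between subsets by the test of that difference. The first is the region 843 bp from the Ifngr2 start, where the difference between Hivep3-/- and C57BL/6 in iNKT1 minus that in iNKT2 cells was -1.60. The others are at the Gbp7 exon, where the value for iNKT1 minus iNKT17 was -2.37 and that for iNKT2 minus iNKT17 was -2.40. Each was lost when 1 or 5 normalised insertions per kb were added before taking logs.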

How the results depend on the processing

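With 5 normalised insertions per kb added, called regions fell to 8 (iNKT1 against iNKT2), 11 (iNKT1 against iNKT17) and 2 (iNKT2 against iNKT17) in C57BL/6 and to 13, 10 and 2 in Hivep3-/- cells, and with 1 added the C57BL/6 iNKT2 against iNKT17 count was 15. The constants shrink differences of low values by construction. Regions called for 1 C57BL/6 subset fell to 4, 0 and 0 for iNKT1, iNKT2 and iNKT17 with 5 added. The genotype count in the mean of the subsets fell from 1 to 0 with 1 or 5 added, as did each of the 3 interaction counts, and both interaction counts against iNKT17 were 0 at an adjusted p under 0.05. The iNKT2 genotype count rose from 0 to 1 with 1 added, with no filter (the region downstream of Irf8) and with the replicate block. Without a flank, 14.0% instead of 19.4% of the tested regions were called for iNKT1 against iNKT17 in C57BL/6 and 8.40% instead of 14.2% in Hivep3-/- cells. In promoters within 250 bp the ISRE share was 55.4%.

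With the replicate number as a block, the interaction count for iNKT1 against iNKT2 rose from 1 to 2 by adding the region downstream of Irf8, and in iNKT2 cells it added the Ifngr2 exon. The block changed no other call of a region described here.

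Leaving out single libraries (a group left with 1 library is assumed to vary like the others) gave 30 to 37, 38 to 42 and 19 to 25 called regions in C57BL/6 and 36 to 37, 29 to 31 and 15 to 19 in Hivep3-/- cells. The genotype counts were 0 to 1 in iNKT2 and in the mean of the subsets, and the interaction counts 0 to 3, 0 to 1 and 0 to 2. Regions called for 1 subset numbered 16 to 20, 1 to 3 and 2 to 3. No difference changed its sign among the 3225 regional values that kept their call status and the 233 that lost it. Depth is unknown, and the lower values of a library are coarse, which limits differences between low values.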
